A study of Homo sapiens with 6 samples.

Results

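The mitochondrial pyruvate carrier and the pyruvate dehydrogenase complex were followed through 10 genes: the carrier subunits MPC1 and MPC2, the complex subunits PDHA1, PDHB, DLAT, PDHX and DLD, the kinases PDK1 and PDK3, and the phosphatase PDP1. They were picked by symbol, including earlier symbols such as BRP44L for MPC1 and BRP44 for MPC2. The platform annotation used here held probes for 8 of the 10, with 10 probes in all, among 9841 genes tested and 47231 probes on the array. PDK1 and PDP1 were not analysed here. All 10 probes were detected on 6 of 6 arrays, at a detection p under 0.01, so none fell under the minimum of 3 arrays.

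RNA came from PC3, an established line of human prostate cancer, carrying a construct for PGC1A, the transcriptional coactivator encoded by PPARGC1A. The samples were 3 grown without doxycycline and 3 grown with doxycycline for 2 passages, and all 6 carry the construct. Each was hybridised to an Illumina bead array, which reads each transcript by the brightness of a probe. Cells without the construct were not analysed here, so doxycycline itself and the induced gene cannot be told apart, and whether the cells are 1 clone is not given in the sources used here. The labels do not say if each replicate was a culture of its own. The p-values therefore speak only to the spread among these 6 samples, and that spread may be technical.

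Pyruvate made by glycolysis in the cytosol crosses the inner mitochondrial membrane through the carrier, a pairing of MPC1 with MPC2. Inside, the pyruvate dehydrogenase complex turns it into acetyl-CoA, the fuel of the tricarboxylic acid cycle, in steps carried out by its E1, E2 and E3 enzymes. Kinases of the PDK family phosphorylate and switch off E1, and PDP phosphatases switch it back on. PGC1A is known for raising mitochondrial and oxidative genes together with the nuclear receptor ERR-alpha, encoded by ESRRA.

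The arrays detected from 15029 to 16012 probes, with median raw intensities between 60.03 and 68.04. In a principal component analysis the first component (35.3% of the variance) set doxycycline replicate 2 apart at 20.1, against -11.1 to 2.89 for the other arrays. All 3 arrays with doxycycline lay at 2.96 or above on the second component (32.9%), and all 3 without it at -3.65 or below. The PPARGC1A probe, whose place relative to the construct is not given in the sources used here, lay near background at a mean log2 signal of 5.32 ± 0.34 (SD, n = 3) in untreated cells and 5.36 ± 0.33 (SD, n = 3) under doxycycline. It changed by 0.04 (95% interval -0.45 to 0.52, limma adjusted p = 0.951), and by -0.16 and -0.15 without no-doxycycline replicate 1 and doxycycline replicate 2, so it does not check the labels. Of the epithelial markers fixed for this line, EPCAM, KRT19, KRT8 and CDH1 were detected on all 6 arrays and KRT18 on 1. Prostate luminal markers were not analysed here. Among 5 fibroblast markers COL1A2 and LUM were detected on all 6 arrays, COL1A1 on 5 and DCN on 1. The summed background-corrected signal of the 3 tested, COL1A1, COL1A2 and LUM, ran from 2200 to 2510 without and from 2130 to 2650 with doxycycline. COL1A2 was by far the brightest of these 3. The endothelial marker PECAM1 was detected on 3 arrays without and 1 with doxycycline (-0.41 on the log2 scale, limma adjusted p = 0.517). The leukocyte marker CD68 was detected on all 6 arrays (-0.16, limma adjusted p = 0.651). None of the tested markers was called by limma, and 1 of them, LUM, had an unadjusted p under 0.05 (0.33 on the log2 scale, adjusted p = 0.190). The part of these markers in the results was not tested. Fewer cells of a type and less RNA per cell cannot be told apart in such bulk samples.

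The bases just upstream of a gene's start hold many of the sites where transcription factors act, so 4 windows are shown: those of MPC1, MPC2 and PDHA1, the members that rose, and that of PDHB, the partner of PDHA1, which did not pass the test. They are the 250 bases before the RefSeq start on GRCh38.p14, written 5′ to 3′ on the gene's strand. Capitals mark matches, on either strand, to the GC box GGGCGG, to the E-box CACGTG and to the motif of nuclear respiratory factor NRF1.

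MPC1, chr6:166382941-166383190, minus strand: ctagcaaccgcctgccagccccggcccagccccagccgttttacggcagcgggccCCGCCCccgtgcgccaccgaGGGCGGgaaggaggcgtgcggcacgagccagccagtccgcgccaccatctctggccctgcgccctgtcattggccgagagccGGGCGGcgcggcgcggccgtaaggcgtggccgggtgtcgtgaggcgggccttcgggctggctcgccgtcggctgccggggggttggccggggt
MPC2, chr1:167935997-167936246, minus strand: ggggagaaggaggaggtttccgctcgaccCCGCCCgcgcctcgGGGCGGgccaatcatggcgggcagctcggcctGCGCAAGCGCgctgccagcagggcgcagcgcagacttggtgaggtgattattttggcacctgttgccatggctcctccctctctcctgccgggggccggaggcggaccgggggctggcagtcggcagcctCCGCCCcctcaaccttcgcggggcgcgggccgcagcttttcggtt
PDHA1, chrX:19343677-19343926, plus strand: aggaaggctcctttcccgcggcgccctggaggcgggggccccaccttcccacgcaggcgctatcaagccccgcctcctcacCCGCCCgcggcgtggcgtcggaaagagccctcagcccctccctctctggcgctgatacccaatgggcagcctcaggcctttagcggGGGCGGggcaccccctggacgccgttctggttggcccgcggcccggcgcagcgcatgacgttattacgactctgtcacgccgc
PDHB, chr3:58433833-58434082, minus strand: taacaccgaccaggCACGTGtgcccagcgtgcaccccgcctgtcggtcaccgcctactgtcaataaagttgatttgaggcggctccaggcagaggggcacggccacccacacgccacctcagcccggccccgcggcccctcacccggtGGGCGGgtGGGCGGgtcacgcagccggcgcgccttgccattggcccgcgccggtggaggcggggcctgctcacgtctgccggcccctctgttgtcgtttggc

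The GC box was the shared feature of these windows, with 3 matches in MPC1, 3 in the MPC2 window shown, 2 in PDHA1 and 2 in PDHB. It was present before 6 of the 8 measured members, where 42.6% of the 35116 RefSeq windows of the same length hold it. These windows are rich in G and C, 77.6% for MPC1 and 71.6% for each of the other 3 shown, beside a median of 58.0% over all windows. DLAT and DLD had no match to any motif searched. The NRF1 motif occurred in the MPC2 window shown (5.07% of all windows) and the E-box in the PDHB window (6.34%). The other MPC2 windows, not shown, held the GC box but no NRF1 match. No window of the 8 members held AAGGTCA, the core site bound by ERR-alpha (3.44% of all windows), the longer TCAAGGTCA that contains it (0.319%), the ETS site CCGGAAG (8.52%) or the cyclic AMP element TGACGTCA (1.65%). These matches describe letters in a window, and a gene with several starts counts where any of its windows matched. MPC2 had 3 windows, and PDHX and DLD had 2 each. The counts by gene are therefore not of the same kind as the shares of single windows beside them.

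The comparison asks what the doxycycline-grown cells express differently. Carrier and complex genes lay mostly higher with doxycycline: MPC1 rose 2.34-fold, MPC2 1.53-fold and PDHA1 1.48-fold, and these 3 of the 8 measured members passed the test (limma, Benjamini-Hochberg adjusted p under 0.05 over all genes). Over all 9841 genes tested, 0.539% were called by that test, 0.437% higher and 0.102% lower. DLAT, PDHX and DLD, the remaining subunits of the complex except PDHB, had measured changes of 1.45-fold to 1.58-fold that did not pass. PDHB was at 1.09-fold and the kinase PDK3 at 0.83-fold. In 6 of the 8 members all arrays with doxycycline lay above all arrays without it, compared with 10.2% of all genes. The median log2 change of the 8 was 0.58, beside -0.03 for all genes, and 7 of the 8 lay above 0, beside 43.4% of all genes. The members were chosen with earlier results of these data known, so these shares only describe them.

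**Figure D1:**
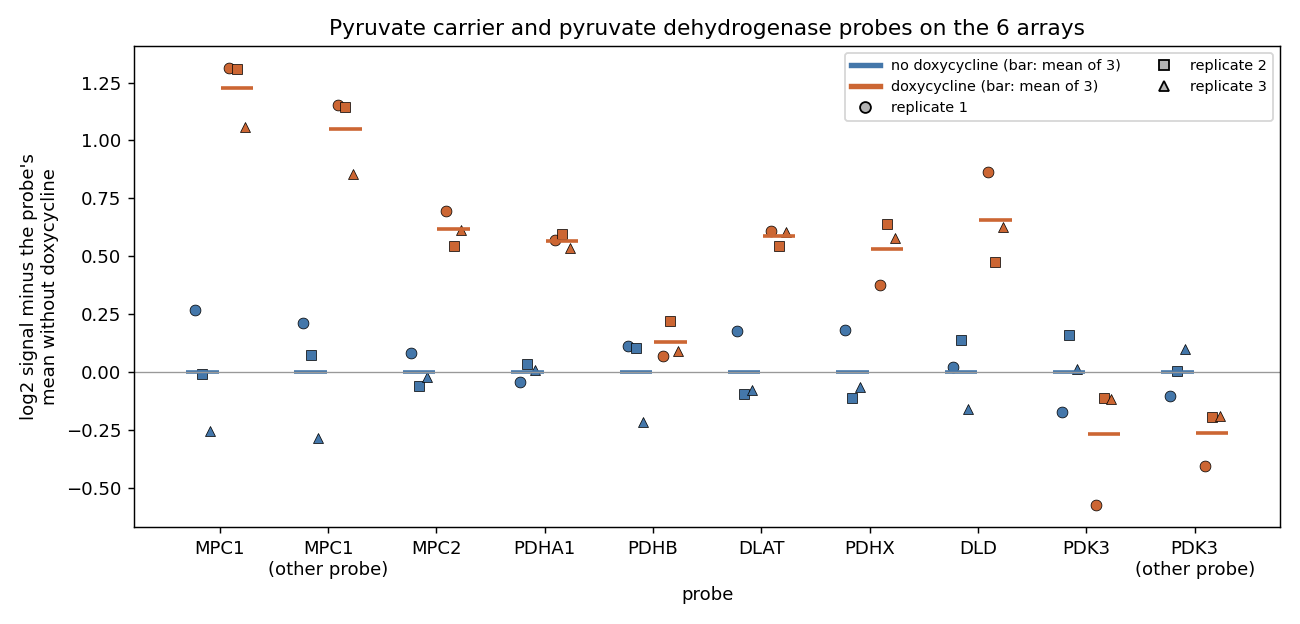
Each point is 1 array, with the log2 signal of a probe set against that probe's mean over the 3 arrays without doxycycline; bars are group means and marker shapes give the replicate number. The groups are separated for both MPC1 probes, MPC2, PDHA1, DLAT, PDHX and DLD, and overlap for PDHB and for the brighter PDK3 probe.

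With the replicate number as a block 4 of the 8 members rose, MPC1, MPC2, PDHA1 and DLAT, where 1.35% of all genes did and 1.80% were called in either direction. When each array was left out in turn, the 5 remaining arrays gave calls for 1 to 9 genes in all and for 1 member at most. That member was MPC1, without no-doxycycline replicate 1.

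MPC1 is a carrier subunit whose loss alone is known to stop mitochondrial pyruvate uptake. Its brighter probe (ILMN_2226324) had raw intensities of 819, 716 and 624 on the arrays without doxycycline and of 1618, 1576 and 1247 on those with it. After background correction and quantile normalization the log2 signals were 9.59, 9.32 and 9.07 against 10.64, 10.64 and 10.38. The lowest array with doxycycline thus lay above the highest without it, and replicate 3 was the lowest of its group on both sides. The log2 fold change was 1.23 (SE 0.143, 95% interval 0.90 to 1.56, limma adjusted p = 0.0291), the change of rank 5 from the top among all genes tested. A second MPC1 probe (ILMN_1666967) read 9.37, 9.23 and 8.87 without and 10.31, 10.30 and 10.01 with doxycycline. It kept the same order of arrays as the brighter probe, and its change of 1.05 passed as well (SE 0.146, limma adjusted p = 0.0312 over all probes). MPC1 stayed called without no-doxycycline replicate 1 (1.36, adjusted p = 0.0475). It lost its call when any other array was removed: the adjusted p became 0.123 for untreated replicate 2 and 0.109 for untreated replicate 3. For the doxycycline arrays, taken in order, it became 0.0910, 0.0594 and 0.0641, and the change in these 5 fits ran from 1.10 to 1.31.

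MPC2 is the partner subunit in the carrier. Its probe (ILMN_1727813) had raw intensities of 996, 952 and 1006 without doxycycline and of 1477, 1305 and 1286 with it. The normalized log2 signals were 9.90, 9.75 and 9.79 against 10.51, 10.36 and 10.43, with no overlap. MPC2 rose by 0.62 on the log2 scale (SE 0.0840, 95% interval 0.42 to 0.81, limma adjusted p = 0.0327). It lost its call with median scaling in place of quantile normalization (0.58, adjusted p = 0.0535) and without any single array, where the change stayed between 0.58 and 0.66 and the adjusted p between 0.0594 and 0.170. Both carrier genes rose, and the measured change was larger for MPC1. Within each array the log2 difference MPC1 minus MPC2 was -0.30, -0.44 and -0.72 without and 0.13, 0.28 and -0.04 with doxycycline. Brightness depends on the probe, so only the change of such a difference between groups can be read, not its level. It changed by 0.61, with p = 0.1 in a two-sided exact permutation test over the 6 arrays, or 0.133 adjusted over the 4 pairs of members compared. This unpaired test cannot give a p below 0.1, and the pairs were chosen after seeing the data. It therefore cannot show that the changes differ.

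PDHA1 encodes the alpha subunit of E1, which decarboxylates pyruvate and carries the serines that the kinases phosphorylate. Its probe (ILMN_1772369) had raw intensities of 846, 931 and 940 without doxycycline and of 1250, 1238 and 1118 with it. Normalized, these became 9.64, 9.72 and 9.69 against 10.26, 10.28 and 10.22, the tightest groups of the 8 members with SDs of 0.0396 and 0.0297. PDHA1 rose by 0.57 (SE 0.0745, 95% interval 0.39 to 0.74, limma adjusted p = 0.0312). With median scaling its change was 0.53 (adjusted p = 0.0573), and without any single array it lay between 0.55 and 0.58, with adjusted p from 0.0636 to 0.143.

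PDHB encodes the beta subunit, which joins the alpha subunit in E1. The raw intensities of its probe (ILMN_1739274) were 4554, 4659 and 3894 without doxycycline and 4356, 4694 and 4118 with it. On the log2 scale the arrays read 12.13, 12.12 and 11.80 against 12.09, 12.24 and 12.11, so the groups overlapped and no-doxycycline replicate 3 was the lowest array. The change was 0.13 (SE 0.111, 95% interval -0.13 to 0.38, limma adjusted p = 0.637), and 0.02 without that array (adjusted p = 0.964). An increase of up to 1.30-fold lies inside the interval. The difference PDHA1 minus PDHB was -2.49, -2.40 and -2.11 within the arrays without and -1.83, -1.96 and -1.89 within those with doxycycline, a change of 0.44 without overlap (exact permutation p = 0.1, adjusted p = 0.133 over the 4 pairs). That p is again the smallest the 20 splits of 6 arrays can give.

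DLAT is the E2 enzyme, the acetyltransferase whose lipoyl arms pass the acetyl group to coenzyme A and which forms the core of the complex. Its raw intensities were 288, 260 and 269 without and 367, 354 and 343 with doxycycline. Its log2 signals were 7.95, 7.68 and 7.70 without and 8.39, 8.32 and 8.38 with doxycycline, again without overlap. The change of 0.59 (SE 0.0964, 95% interval 0.36 to 0.81) narrowly missed the threshold over all genes (limma adjusted p = 0.0502). It also missed with median scaling (adjusted p = 0.0535) and without a detection filter (adjusted p = 0.0629). Without any single array the adjusted p lay between 0.0873 and 0.205. DLAT passed with the replicate block (adjusted p = 0.0370), without background correction (0.51, adjusted p = 0.0241) and on the deposited table (0.51, adjusted p = 0.0246). Over all probes its probe (ILMN_1706583) also passed (adjusted p = 0.0487), so 5 of the 10 member probes were called there, both of MPC1 and those of MPC2, PDHA1 and DLAT, where 0.573% of all probes rose and 0.682% were called in either direction.

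PDHX is the E3-binding protein, which resembles E2 and anchors E3 to the core. Its probe (ILMN_1652357) read 8.61, 8.32 and 8.37 without and 8.81, 9.08 and 9.01 with doxycycline, a difference of 0.53 without overlap (SE 0.112, limma adjusted p = 0.110). The difference DLAT minus PDHX shifted by 0.06 between the groups, which overlapped (SD 0.166 over the 3 arrays with doxycycline, exact permutation p = 0.7). With 3 arrays a group this p does not show that the pair changed alike. DLD, the E3 enzyme, reoxidises the lipoyl arms and serves several other complexes. Its probe (ILMN_1664577) read 7.45, 7.57 and 7.27 against 8.29, 7.91 and 8.06, with every doxycycline array the higher. The difference of 0.66 (SE 0.125, 95% interval 0.37 to 0.94) had a limma adjusted p of 0.0811. DLD passed with normexp and an offset of 50 (0.57, adjusted p = 0.0486) and with an intensity trend in the variance (adjusted p = 0.0449), and PDHX with array weights (0.57, adjusted p = 0.0287). With the replicate block DLD had an adjusted p of 0.055 and PDHX 0.0801. Neither passed without any single array, with adjusted p from 0.0735 to 0.258 for DLD and from 0.130 to 0.334 for PDHX.

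**Figure D2:**
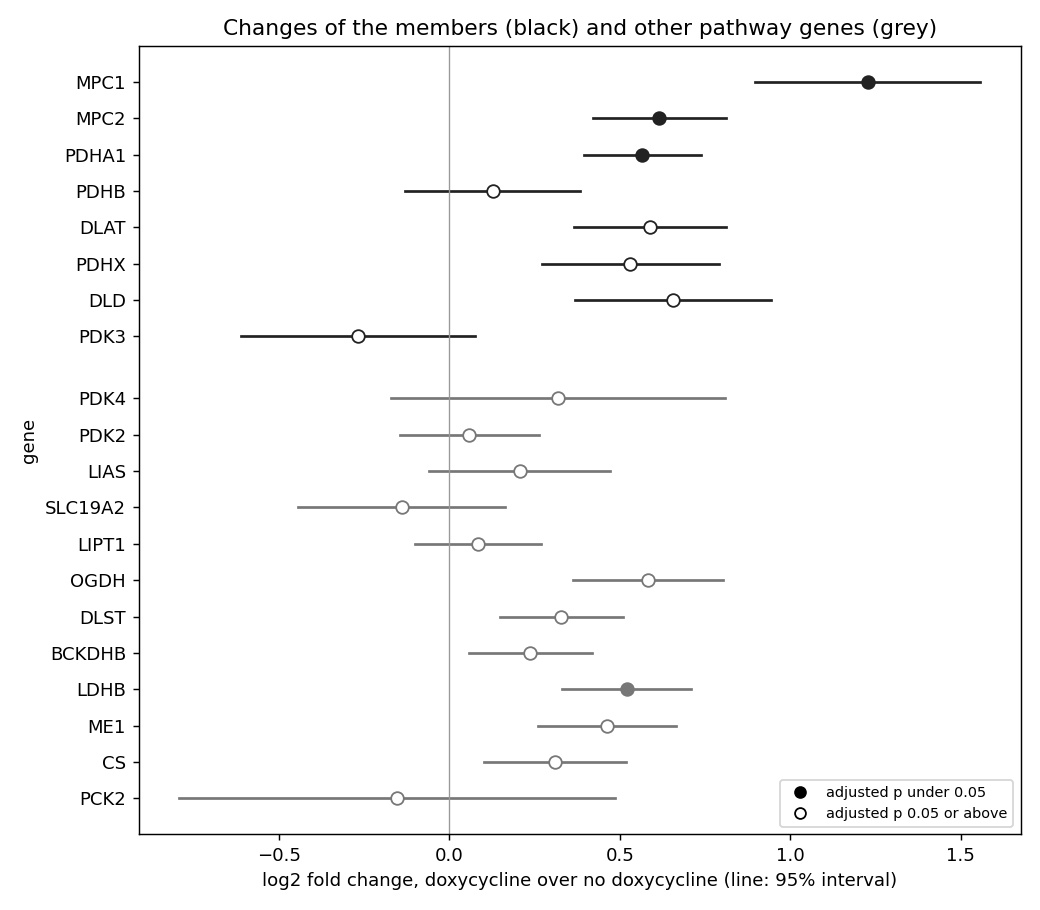
Points are log2 fold changes of doxycycline over no doxycycline with 95% intervals from limma, for the 8 members in black. Grey points are the named genes of the pathway lists, without those named after their values were seen. Filled points passed an adjusted p under 0.05. The filled points are MPC1, MPC2, PDHA1 and LDHB, and the interval of PDHB includes 0.

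PDK3 is the only measured kinase of the set. Its brighter probe (ILMN_1827736) read 9.86, 10.19 and 10.04 without and 9.45, 9.92 and 9.91 with doxycycline, and the groups overlap. Between arrays of the same replicate number the differences were -0.40, -0.27 and -0.13, all lower with doxycycline. A second probe (ILMN_1776582) read 8.63, 8.74 and 8.83 against 8.33, 8.54 and 8.55, where all arrays with doxycycline were lower. Of the 9841 genes tested, 1112 were lower without overlap. Both probes gave nearly the same difference. It was -0.27 for the brighter (SE 0.148, 95% interval -0.61 to 0.08, limma adjusted p = 0.457). For the second it was -0.26 (SE 0.0995, 95% interval -0.49 to -0.03, limma adjusted p = 0.277 over all probes). With the replicate block the SE of the brighter probe was 0.0796 and its adjusted p 0.130. Neither probe passed, and PDK3 lay at -0.11 without doxycycline replicate 1. The difference PDHA1 minus PDK3 was -0.21, -0.47 and -0.35 within the arrays without and 0.80, 0.36 and 0.31 within those with doxycycline. Its change of 0.83 was the largest of the 4 pairs compared (exact permutation p = 0.1, adjusted p = 0.133).

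The other regulators listed for the complex were mostly not analysed: 2 of 6 were tested and neither passed in limma, nor had an unadjusted p under 0.05. PDK4, a kinase induced by fasting in skeletal muscle, was detected on 4 of 6 arrays, with signals of 5.13, 5.30 and 5.40 against 5.08, 5.98 and 5.73. The spread with doxycycline was wide, and its difference was 0.32 (95% interval -0.17 to 0.81, limma adjusted p = 0.529). It lay at 0.58 without doxycycline replicate 1, at 0.13 without doxycycline replicate 2 and at 0.17 without background correction. PDK2, a widely expressed kinase of E1, was at 0.06 (adjusted p = 0.795) and at -0.02 with array weights. In the list of lipoylation and thiamine genes 4 of 8 were tested and none passed by limma, with none at an unadjusted p under 0.05. Over all genes tested, 0.539% passed and 14.7% had an unadjusted p under 0.05, so these counts from so few genes say little. LIAS, which makes the lipoyl group, was at 0.21 (adjusted p = 0.457) and the lipoyl transferase LIPT1 at 0.08 (adjusted p = 0.666), with its other probe at -0.06 and the mean of both at 0.01. The thiamine transporter SLC19A2 was at -0.14 (adjusted p = 0.667), from -0.02 without doxycycline replicate 1 to -0.23 without no-doxycycline replicate 1.

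Complexes built like pyruvate dehydrogenase were tested for all 8 listed genes, of which none passed in limma, while 3 had an unadjusted p under 0.05, as did 14.7% of all genes tested. The same 3 were higher without overlap of the groups, compared with 10.2% of all genes. OGDH, the E1 enzyme of the 2-oxoglutarate dehydrogenase complex, which also uses DLD, read 7.94, 7.74 and 7.78 against 8.52, 8.30 and 8.39. Its difference of 0.58 (SE 0.0953, limma adjusted p = 0.0502) passed with the replicate block (adjusted p = 0.0268). DLST, the E2 enzyme of that complex, was at 0.33 (95% interval 0.15 to 0.51, adjusted p = 0.125). For the branched-chain complex BCKDHB was at 0.24 on its brightest probe (adjusted p = 0.240), with its other probes at 0.03 and 0.45. BCKDHA was at -0.17 (adjusted p = 0.699) and DBT at 0.06 (adjusted p = 0.800). The list also holds a kinase, BCKDK, at -0.19 (adjusted p = 0.489), and a phosphatase, PPM1K, at 0.13 (adjusted p = 0.906). DHTKD1, the last gene of the list, was at -0.03 (adjusted p = 0.881). The genes from BCKDHA on were named after their values were seen.

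Among genes that supply or divert pyruvate 8 of 12 were tested and 1 rose. This was LDHB, a lactate dehydrogenase subunit associated with turning lactate into pyruvate, which read 10.09, 9.92 and 10.03 without and 10.57, 10.51 and 10.52 with doxycycline. LDHB rose by 0.52 (SE 0.0813, 95% interval 0.33 to 0.71, limma adjusted p = 0.0438), without overlap. Its adjusted p was 0.0949 with median scaling, 0.0575 without a detection filter and from 0.0873 to 0.201 without any single array. LDHA, the subunit associated with lactate production and named here after its values were seen, was at -0.02 (95% interval -0.21 to 0.17, adjusted p = 0.932), a sign that turned under median scaling (0.05) and array weights (0.03). The malic enzyme ME1 was at 0.46 (adjusted p = 0.0811) and citrate synthase CS, which takes up the acetyl group, at 0.31 (adjusted p = 0.190), both without overlap. LDHB, ME1 and CS were the 3 of these 8 that were higher without overlap, compared with 10.2% of all genes. The same 3 had an unadjusted p under 0.05 in limma, as did 14.7% of all genes. Mitochondrial PCK2 was at -0.15 (adjusted p = 0.831), with its other probes at 0.04 and 0.03. In the 4 lists together 1 of 22 tested genes rose, beside 0.437% of all genes. With the replicate block 2 did, LDHB and OGDH, beside 1.35% of all genes. Of the 22, 6 were higher without overlap and 6 had an unadjusted p under 0.05 in limma. The median change of the 22 was 0.08, beside -0.03 for all genes.

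**Figure D3:**
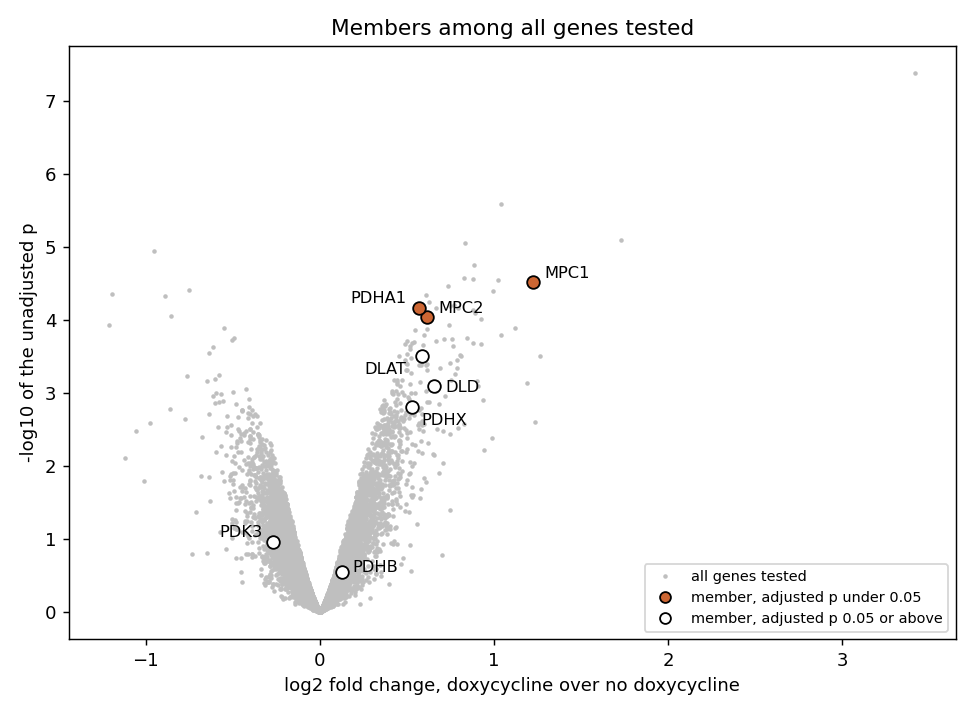
Every gene tested is a grey point, with its log2 fold change of doxycycline over no doxycycline on the x axis and -log10 of the unadjusted limma p on the y axis; the 8 members are circled. MPC1, MPC2 and PDHA1 are filled, DLAT, DLD and PDHX lie just below them, and PDHB and PDK3 lie among the bulk of genes.

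Nuclear receptor ESRRA, the partner of PGC1A, lay beside the members in size: it read 8.01, 8.07 and 7.98 without and 8.50, 8.61 and 8.45 with doxycycline. Its difference of 0.50 (SE 0.0816, limma adjusted p = 0.0502) passed with the replicate block (adjusted p = 0.0370).

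The genes outside the set whose signals ran closest to those of MPC1 were found by the root mean square difference between centred log2 signals over the 6 arrays. They were GOT1, an aspartate aminotransferase, at 0.175, CPLX1 at 0.183, FAM162A at 0.183, GSTM1, a glutathione transferase, at 0.190 and the mitochondrial nuclease ENDOG at 0.217, where the median over all genes was 0.662. Closest to PDHA1 were DNER at 0.0385, the transcribed pseudogene RNF4BP at 0.0394, the glutathione transferase GSTK1 at 0.0396, ISOC2 at 0.0416 and ETFDH, which passes electrons from fatty acid oxidation to ubiquinone, at 0.0454, with a median of 0.321. These are descriptions of likeness on the same 6 arrays, with no test.

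**Figure D4:**
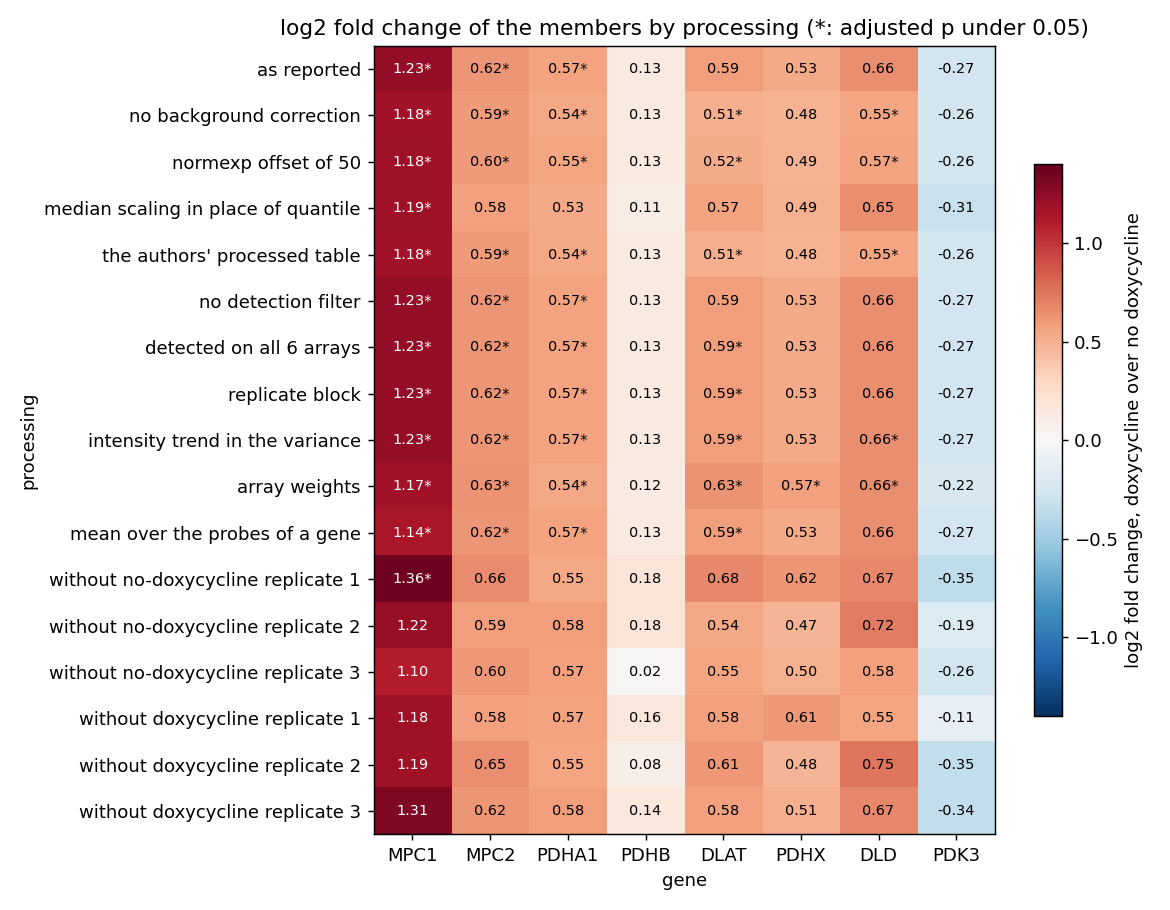
Each cell gives the log2 fold change of a member (columns) under a way of processing (rows), coloured from lower (blue) to higher (red) with doxycycline; an asterisk marks an adjusted p under 0.05. The sign is the same in every row for each member, MPC1 keeps its call in the first 12 rows, and PDHB and PDK3 have no call in any row.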

How the data were processed

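RNA of 6 PC3 samples was read on Illumina bead arrays. The deposited table gives intensity values for 47231 probes with a detection p-value against each array's negative controls. These intensities differ in median between arrays, and scanner software is not given in the sources used here. The deposited processed table holds log2 values of the 17925 probes detected on 1 or more arrays and equals their log2 intensity after quantile normalization, per the file values; the submitters' processing notes name lumi. Probes were named from the platform annotation (13977 with 1 gene, 4 with several, 3944 of the processed probes unlisted), with symbols updated through Entrez numbers for 13970. Promoter windows are from RefSeq (GRCh38.p14).

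Intensities were corrected with normexp on the detection p-values (offset 16), quantile-normalized and taken to log2 by neqc of limma 3.58.1, run in R 4.3.3. To be kept, a probe needed detection p-values under 0.01 on 3 or more of the 6 arrays (15542 probes), and the probe with the highest mean stood for its gene (9841 genes). The comparison used lmFit and eBayes (two-sided), and a call of a gene means an adjusted p under 0.05 (Benjamini-Hochberg) over all genes. Counts of called probes come from a fit of all kept probes, with the same threshold adjusted over all probes. So do the values of probes that do not stand for their gene. Replicate numbers in the titles may pair the samples, but the labels do not say what a number marks. Over genes, deviations from the group means correlated at 0.454, 0.523 and 0.299 for the same number. For unlike numbers the correlations ran from -0.425 to -0.066. The deviations of a gene sum to 0 within a group. Positive values for the same number therefore make those for unlike numbers negative on balance. The main fit and the permutation tests took the arrays as unpaired, and only the replicate block used the numbers. The named genes are the members, called genes of 4 pathway lists and up to 3 others a list by size of change. A few more are marked as named after their values were seen. Members and lists were chosen with earlier results of these data known. Alternatives covered background correction, normalization, filters, the deposited table, variance model, array weights, probe choice, the replicate block and leaving out each array. The small number of arrays limits the precision.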

Additional observations from a re-analysis of the deposited data

How the results depend on the processing

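Each member kept its sign in all 16 alternatives, from 1.10 to 1.36 for MPC1 and from 0.02 to 0.18 for PDHB. MPC1 was called in 10 of the 10 alternatives that keep all arrays, MPC2 and PDHA1 in 9, DLAT in 8, DLD in 5, PDHX in 1, and PDHB and PDK3 in none. Against 53 called genes, 3 called members and 1 other pathway gene, the counts were 81, 5 and 2 on the deposited table and also when background was not corrected, 80, 5 and 2 with an offset of 50, and 100, 5 and 2 with an intensity trend. They were 34, 1 and 0 with median scaling and 207, 6 and 3 with array weights. With the replicate block they were 177, 4 and 2. Other pathway genes numbered 2 with probes detected on all 6 arrays and with the mean of a gene's probes. Without a detection filter 30 genes, 3 members, 0 other pathway genes and 0 of 10 member probes were called by limma, with 6 pathway genes and 8 member probes at an unadjusted p under 0.05, as were 13.95% of all genes; more probes are tested there. Leaving out 1 array gave 1 to 9 genes, 0 to 1 members, 0 to 1 member probes and 0 other pathway genes. These fits have fewer samples. In them 6 members, 7 to 8 member probes and 5 to 9 pathway genes had an unadjusted p under 0.05 in limma. So did 9.97% to 15.1% of all genes. These shares, like the 13.95% without a detection filter, are over genes. No share over all probes was computed for the member probes in these fits.

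Signs turned for values that were never called. PDK2 was at -0.016 with array weights, LDHA at 0.049 with median scaling and 0.026 with array weights, and PPARGC1A at -0.19 with array weights. Without 1 array LDHA ran from -0.056 to 0.025, PCK2 from -0.44 to 0.12 and PPARGC1A from -0.16 to 0.17. The cause was not tested. The pathway gene values and the tests of 4 pairs of members were added after seeing the data. The slide of each array is not given in the sources used here, so slide as a block was not run.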
